A study of Homo sapiens with 9 samples.

Results

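The 77 genes of mitochondrial ribosomal proteins were followed in the RNA that coprecipitated with PABPN, the poly(A) binding protein of the nucleus, and with PABPC, its cytoplasmic counterpart. Members were protein-coding genes whose symbol is MRPL or MRPS followed by a number and at most 1 letter, which gave 77 of the 51105 genes present in both tables of the series. RNA was from wildtype HEK293T, a human cell line of embryonic kidney origin, crosslinked in 0.1% formaldehyde for 10 min, lysed by sonication and used as input or immunoprecipitated with an antibody against PABPN or PABPC. Each of the 3 kinds of sample (input RNA, PABPN RIP and PABPC RIP, where RIP is RNA immunoprecipitation) had 3 biological replicates, and libraries were depleted of ribosomal RNA and read as 75 nt single reads. All 9 samples were crosslinked, each lysate was split to give input and both RIPs, and no control antibody is among the samples. The study reports that pulldown with matched IgG control antibodies gave too little RNA to be sequenced. The question was which of these RNAs were more or less abundant with each protein than in the whole lysate they came from.

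The mitochondrial ribosome translates the few proteins encoded by mitochondrial DNA, all of them core parts of the respiratory chain and the ATP synthase. Its own proteins are encoded in the nucleus, made from polyadenylated mRNAs on cytosolic ribosomes and imported. PABPN coats poly(A) tails in the nucleus and PABPC coats them in the cytoplasm, where it takes part in translation and mRNA turnover. Some members descend from bacterial ribosomal proteins and others are found only in mitochondria. The MRP symbols do not follow the subunits throughout. The products of MRPS30 and MRPS18A sit in the large subunit, and that of MRPS36 is a subunit of the 2-oxoglutarate dehydrogenase complex. MRPS36 was therefore counted among the members but in neither subunit.

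The deposited tables hold 1 mean per gene over the 3 input libraries and the 3 libraries of 1 RIP. Whole reads per library were worked out from these means for 51 of the 77 members, and for 9022 (61.9%) of the 14581 genes with means above 50 in both tables. The search allowed more possible sets of reads for members than for other genes, so these shares are not directly comparable. The 51 had lower means on the whole. Their median in the PABPC table was 2178.3 normalised reads, against 3996.6 for the 26 whose reads could not be worked out, so a count over the 51 is not a count over all members. Libraries are called 1 to 3 in order of falling size factor, which is not the replicate number. Normalised reads are reads divided by the size factor, and a member's reads are those from its introns and exons together. Of the 51 members tested, 24 have at least 1 pseudogene that carries their name in the reference annotation, and reads shared with such a copy are uncertain. In each kind of sample 1 library (input 1, PABPN RIP 3 and PABPC RIP 1) deviated from the other two in the same way over all genes, with correlations of 0.58 to 0.74 between their deviations. Results are also given without these 3 libraries where that changed a call.

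Most members were enriched with PABPC. Of the 51 tested, 45 (88.2%) were enriched over input and 2 (3.92%) were depleted, against 38.3% and 32.3% of the 9022 genes tested. The median log2 fold change of the members was 1.56, against 0.14 for all genes tested and 0.35 for the protein-coding ones. Calls rest on limma fitted across all 9022 genes, with a log2 fold change beyond 0.5 and a Benjamini-Hochberg adjusted p of at most 0.01. The 3 PABPC RIP libraries were all above the 3 input libraries for 46 of the 51 members, which was the case for 45.5% of all genes tested. The libraries are of bulk lysate, so RNA from fewer cells and less RNA per cell could not be told apart, and every value is relative to the other RNAs of its library.

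With PABPN, the members lay on the other side of input or close to it. Of the 51 tested, 24 (47.1%) were depleted and 1, MRPS11, was enriched, against 10.8% and 18.7% of all genes tested. Their median log2 fold change was -0.55, against 0.03 for all genes and -0.02 for the protein-coding genes. The 3 PABPN RIP libraries were all below input for 30 members, which was the case for 27.3% of all genes tested. The other 26 members did not pass both cut-offs.

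**Figure D1:**
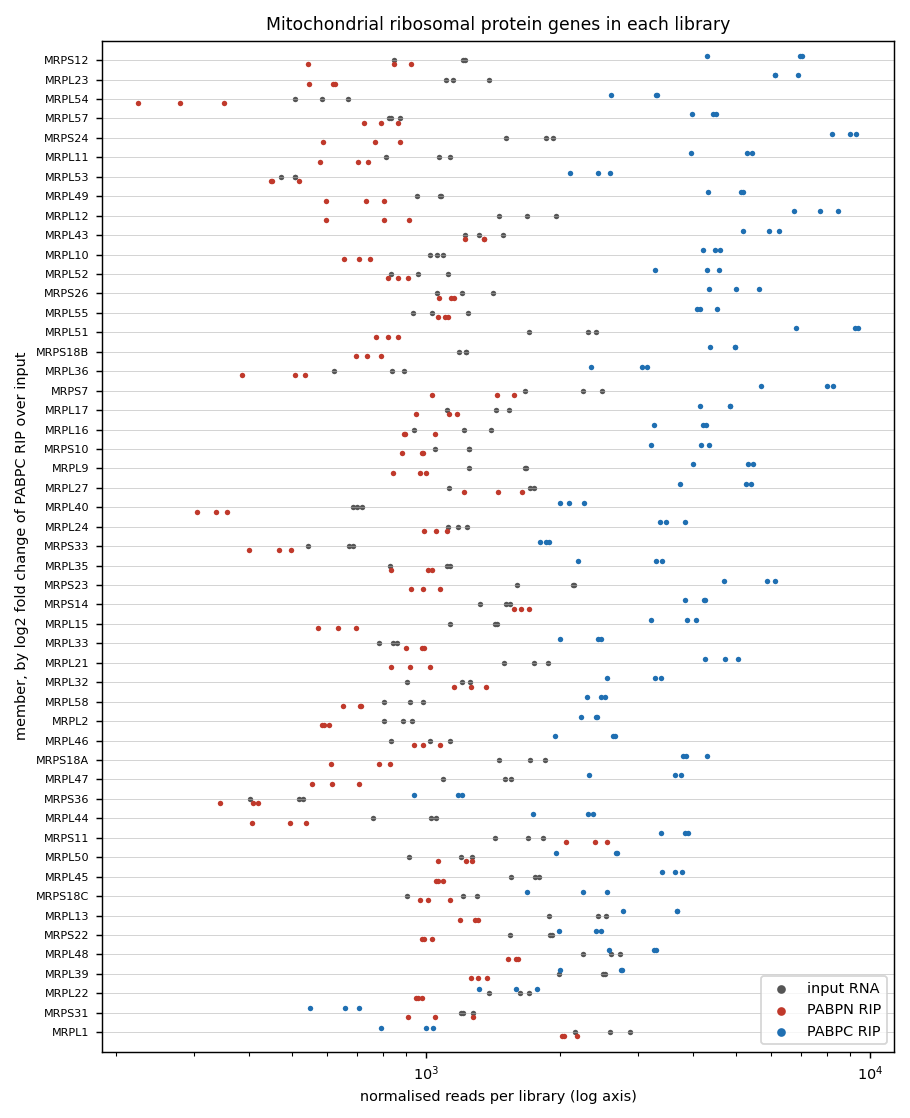
Normalised reads (log axis) of the 51 tested members in each of the 9 libraries, with members ordered by the log2 fold change of PABPC RIP over input. Grey points are input RNA, red points PABPN RIP and blue points PABPC RIP, 3 libraries each, and the blue points lie to the right of the red points in 49 of the 51 members.

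The direct comparison of PABPC RIP with PABPN RIP was a contrast of the same fit in which input libraries set the common scale of the 2 tables. It called 49 of 51 higher with PABPC and 2, MRPL1 and MRPS31, higher with PABPN, against 32.8% and 39.2% of all genes tested. The median difference was 2.09 on the log2 scale, against -0.14 for all genes and 0.16 for the protein-coding genes. The 3 PABPC RIP libraries were all above the 3 PABPN RIP libraries for 49 members (38.7% of all genes tested). Of the 45 members enriched with PABPC, 20 were also depleted from PABPN, 24 were not called with PABPN, and 1 (MRPS11) was enriched with both. Of the remaining 6, 4 were depleted from PABPN and not called with PABPC, and 2 were not called with PABPN and depleted from PABPC. These pairs of calls were not counted over all genes.

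**Figure D2:**
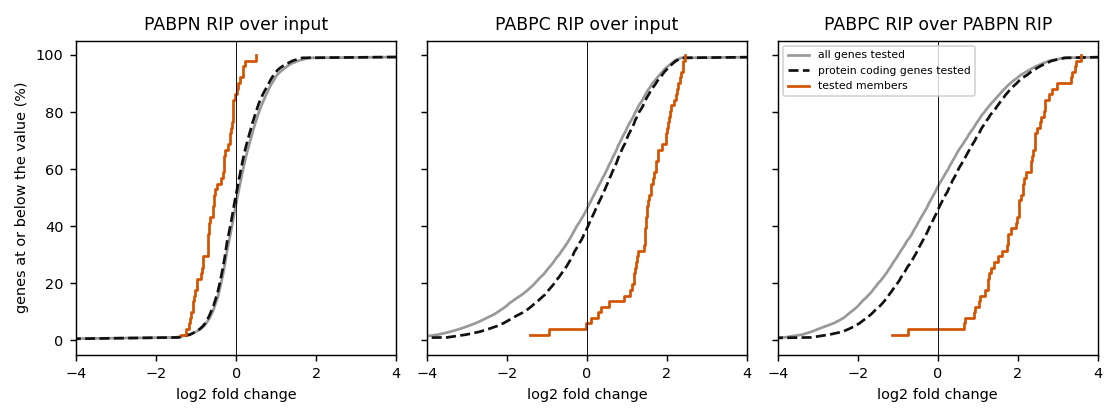
Cumulative distributions of the log2 fold change in the 3 comparisons for the 51 tested members (orange), all 9022 genes tested (grey) and the protein-coding genes among them (dashed). Over most of its range the members' line lies to the left of the other lines with PABPN (median -0.55). It lies mostly to their right with PABPC (median 1.56) and in the direct comparison (median 2.09). The other lines run beyond it at both ends.

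The ends of the members' mRNAs, where the poly(A) tail bound by both proteins is added, are shown for the 3 members with the largest and the 2 with the lowest PABPC over PABPN difference. Each is the last 30 bases of the canonical GENCODE release 44 transcript on hg38, 5′ to 3′ on the transcript's strand, with the poly(A) signal AATAAA in capitals where it occurs.
MRPS24: tctgctattgAATAAAgaccttctatcttg
MRPL54: gccAATAAAgagctttctgggtagacccta
MRPL23: acctaAATAAAagtcttgctgcaggagaaa
MRPL1: taagaaAATAAAattttctctttgtctgaa
MRPS31: tagtaatacatttaagacaacaactcctaa
They lie at chr7:43866558-43866587 (minus strand), chr19:3767536-3767565, chr11:1956571-1956600 and chr4:77952756-77952785 (plus strand) and chr13:40729128-40729157 (minus strand). The letters AATAAA were searched on the transcript strand only. They occur in 4 of these 5 windows, including that of MRPL1, and not in that of MRPS31. They occur in the last 30 bases of 48 of the 77 members' transcripts (62.3%) and of 30 of the 51 tested (58.8%), and over the protein-coding genes tested in 58.8% of 7044. A match is a description of these letters and not of a site in use.

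Among the large subunit members, 37 of 51 were tested, and 33 of them were enriched with PABPC, 1 was depleted, and 20 were depleted from PABPN. Their median log2 fold changes were 1.59 with PABPC, -0.57 with PABPN and 2.14 in the direct comparison. Of all genes tested, 38.3% were enriched with PABPC and 32.3% depleted, and 10.8% were depleted from PABPN. MRPL12, the stalk protein that contacts translation factors, had 1464, 1686 and 1962 normalised reads in the input libraries, 913, 805 and 595 with PABPN and 6754, 8482 and 7734 with PABPC. The 3 kinds of library did not overlap. MRPL12 was enriched with PABPC by 2.17 ± 0.16 (log2 fold change ± SE, limma adjusted p = 2.2e-07) and depleted from PABPN by -1.16 ± 0.16 (limma adjusted p = 0.000169).

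MRPL11, a protein at the base of the same stalk, had 813, 1072 and 1133 normalised reads in input and 3960, 5412 and 5279 with PABPC. It had 705, 739 and 577 reads with PABPN, all below input. The log2 fold change was 2.28 ± 0.16 with PABPC (limma adjusted p = 1.35e-07) and -0.57 ± 0.16 with PABPN, where the limma adjusted p of 0.0117 missed the cut-off. Without the 3 libraries that deviated together MRPL11 passed it, at -0.61.

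MRPL23, a protein at the exit of the peptide tunnel, had 1151, 1110 and 1383 normalised reads in input, 616, 624 and 544 with PABPN and 6106, 6885 and 6122 with PABPC. No library of one kind reached the range of another. Its log2 fold change was 2.40 ± 0.10 with PABPC and -1.02 ± 0.10 with PABPN, and the direct difference was 3.42 ± 0.10 (limma adjusted p = 3.79e-10). MRPL22, which lines the same tunnel, differed from it in the PABPC RIP. It had 1386, 1710 and 1626 normalised reads in input, 982, 950 and 958 with PABPN and 1319, 1778 and 1592 with PABPC. PABPC and input libraries of MRPL22 overlapped, and the log2 fold change of -0.02 ± 0.12 did not pass the cut-offs (limma adjusted p = 0.91). The 3 PABPN libraries lay below all others, with a log2 fold change of -0.70 ± 0.12 (limma adjusted p = 0.000602), and PABPC was higher than PABPN by 0.69 ± 0.12.

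The L1 stalk protein gene MRPL1 went the other way. It had 2170, 2601 and 2877 normalised reads in input, 2029, 2185 and 2045 with PABPN and 792, 1003 and 1039 with PABPC. The PABPC libraries were below every other library, while the PABPN and input libraries overlapped. MRPL1 was depleted from PABPC by -1.43 ± 0.13 (limma adjusted p = 9.28e-07) and was not called with PABPN, at -0.28 ± 0.13 (limma adjusted p = 0.0867). PABPC was lower than PABPN by -1.15 ± 0.13 on the log2 scale (limma adjusted p = 5.31e-06). The gene lies at chr4:77862830-77952785 on the plus strand of hg38, has 9 exons in its canonical transcript and spans 89956 bases.

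MRPL51, MRPL54, MRPL39 and MRPL48 encode mitochondria-specific proteins of the large subunit. MRPL51 had the lowest PABPN fold change of all tested members, with 1707, 2315 and 2413 normalised reads in input, 863, 821 and 770 with PABPN and 6812, 9416 and 9232 with PABPC. Its log2 fold change was -1.38 ± 0.15 with PABPN and 1.99 ± 0.15 with PABPC, which was a 10.3-fold difference between the 2 RIPs. MRPL54 had 506, 583 and 667 normalised reads in input, 350, 279 and 225 with PABPN and 2612, 3298 and 3307 with PABPC, and the direct difference was 3.44 ± 0.17. Both genes had no overlap between kinds of library. MRPL39 and MRPL48 were depleted from PABPN, by -0.82 ± 0.13 and -0.68 ± 0.11. With PABPC, MRPL39 had 2008, 2745 and 2759 normalised reads against 1996, 2525 and 2508 in input, and MRPL48 had 2580, 3270 and 3304 against 2255, 2742 and 2604. The PABPC and input libraries overlapped in both, and neither passed the cut-offs.

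Of the other large subunit members at either end of a comparison, MRPL33, MRPL32, MRPL50 and MRPL55 had log2 fold changes of 0.21 ± 0.10, 0.18 ± 0.14, 0.08 ± 0.15 and 0.04 ± 0.10 with PABPN, none of which passed the cut-offs, and 1.47, 1.45, 1.12 and 2.0 with PABPC, all of which did. MRPL47, MRPL40 and MRPS18A were depleted from PABPN by -1.14 ± 0.19, -1.08 ± 0.09 and -1.18 ± 0.13, and enriched with PABPC by 1.21, 1.6 and 1.25. MRPL57 was enriched with PABPC by 2.35 ± 0.09 and was at -0.09 ± 0.09 with PABPN. MRPL57, MRPL50 and MRPL32 have 5, 3 and 2 pseudogenes.

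Among the small subunit members, 13 of 25 were tested, and 11 of them were enriched with PABPC, 1 was depleted, 4 were depleted from PABPN and 1 was enriched with it. Their median log2 fold changes were 1.56 with PABPC, -0.47 with PABPN and 2.03 in the direct comparison. The shares over all genes tested were 38.3% enriched with PABPC and 32.3% depleted, and 18.7% enriched with PABPN and 10.8% depleted. MRPS24, a protein at the mRNA entry of the small subunit, had the largest direct difference of the tested members. It had 1517, 1930 and 1867 normalised reads in input, 873, 769 and 585 with PABPN and 8215, 9298 and 8999 with PABPC. Every PABPC library was above every input library, and these were above every PABPN library. The log2 fold change was 2.32 ± 0.14 with PABPC, -1.27 ± 0.14 with PABPN and 3.59 ± 0.14 between the 2 RIPs (limma adjusted p = 1.99e-09).

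MRPS12, a protein of the decoding centre, had the largest fold change with PABPC, 2.46 ± 0.24 (limma adjusted p = 2.19e-06). It had 849, 1210 and 1223 normalised reads in input, 924, 847 and 541 with PABPN and 4293, 7040 and 6965 with PABPC. The lowest input and PABPC values came from 2 of the 3 libraries that deviated together, and the lowest PABPN value from the third. PABPN and input libraries overlapped, and the log2 fold change of -0.52 ± 0.24 was not called (limma adjusted p = 0.0928). With these 3 libraries as a block in the fit it was called, at the same fold change, but it stayed uncalled without them and with recomputed size factors. MRPS7, which organises the head of the small subunit, had 1673, 2257 and 2488 normalised reads in input, 1575, 1449 and 1030 with PABPN and 5688, 8260 and 7994 with PABPC. Its PABPN libraries were all below input, but the log2 fold change of -0.67 ± 0.20 missed the cut-off (limma adjusted p = 0.0164), which it passed at -0.65 without the 3 libraries. MRPS23, a mitochondria-specific protein, was depleted from PABPN by -0.97 ± 0.13 and enriched with PABPC by 1.5 ± 0.13.

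MRPS11, a protein of the platform of the small subunit, was the 1 member enriched with both proteins. It had 1431, 1696 and 1831 normalised reads in input, 2409, 2562 and 2068 with PABPN and 3382, 3886 and 3825 with PABPC. The PABPN libraries lay above input and the PABPC libraries above both. The log2 fold change with PABPN was 0.51 ± 0.11 (limma adjusted p = 0.0036), close to the cut-off of 0.5, and the call was lost with recomputed size factors (0.30), without input 1 (0.41), input 2 (0.53), PABPN RIP 1 (0.49) or PABPN RIP 2 (0.44), and without the 3 libraries that deviated together (0.50). With PABPC it was 1.17 ± 0.11 (limma adjusted p = 2.18e-06). MRPS14, another protein of the same subunit, was at 0.17 ± 0.09 with PABPN, with all 3 libraries above input but not past the cut-offs, and at 1.49 ± 0.09 with PABPC.

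MRPS31 and MRPS22, both mitochondria-specific, were the tested small subunit members with the lowest PABPC fold changes. MRPS31 had 1209, 1199 and 1275 normalised reads in input, 911, 1050 and 1276 with PABPN and 547, 707 and 658 with PABPC. PABPC libraries were below all others, and PABPN and input libraries overlapped. MRPS31 was depleted from PABPC by -0.95 ± 0.13 (limma adjusted p = 4.23e-05) and was lower with PABPC than with PABPN by -0.75 ± 0.13 (limma adjusted p = 0.000262). Its 4 pseudogenes make its reads uncertain, since reads that match a copy equally well could have been lost or assigned to it. MRPS22 had 1546, 1927 and 1898 normalised reads in input, 978, 992 and 1032 with PABPN and 1990, 2477 and 2419 with PABPC. Its PABPC libraries were all above input, but the log2 fold change of 0.36 ± 0.11 was under the cut-off (limma adjusted p = 0.0112). It was depleted from PABPN by -0.83 ± 0.11.

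**Figure D3:**
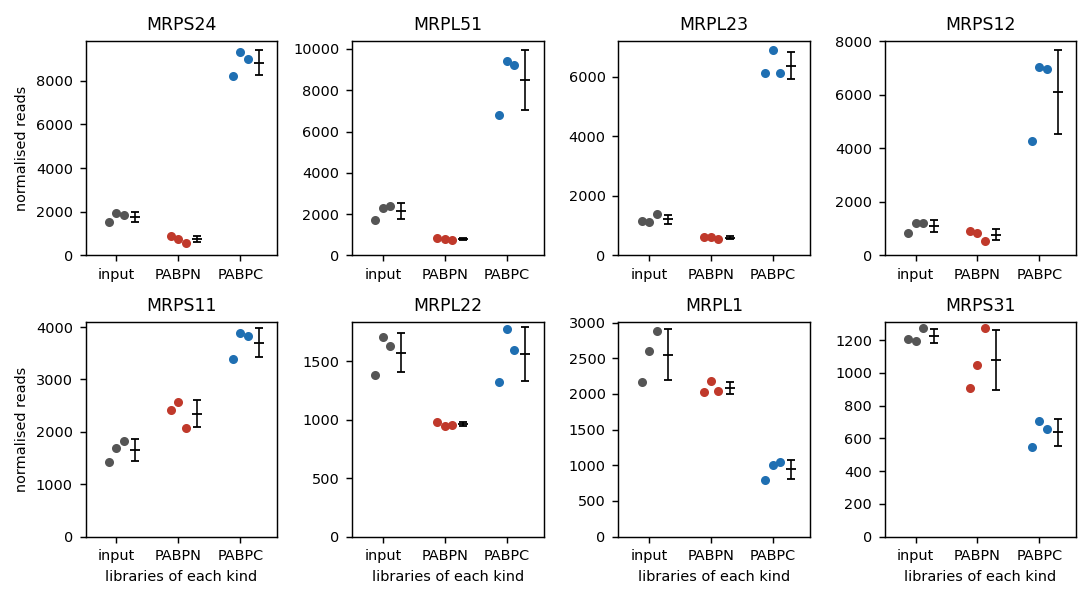
Normalised reads of 8 members in the 3 input, 3 PABPN RIP and 3 PABPC RIP libraries, with the mean ± SD in black beside the points. MRPS24, MRPL51, MRPL23 and MRPS12 are highest with PABPC, MRPS11 is above input with both proteins, MRPL22 is lowest with PABPN, and MRPL1 and MRPS31 are lowest with PABPC.

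Members counted as having a bacterial homologue and members counted as mitochondria-specific were compared by counts and medians, and the difference between them was not tested. MRPS18C was counted with the homologues, and MRPS18A and MRPS18B with the mitochondria-specific members, although they carry the same S18 name. Of 28 tested members with a bacterial homologue, 26 were enriched with PABPC and 12 depleted from PABPN, with medians of 1.62 and -0.54. Of 22 tested mitochondria-specific members, 18 were enriched with PABPC and 12 depleted from PABPN, with medians of 1.53 and -0.61. All genes tested had shares of 38.3% enriched with PABPC and 10.8% depleted from PABPN. MRPS36, outside the ribosome, was enriched with PABPC by 1.20 ± 0.14 and was at -0.30 ± 0.14 with PABPN, where it was not called.

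For the 26 members whose reads could not be worked out, the deposited means still order the 2 RIPs. Once both tables are on 1 scale, the input part is the same in both means. A ratio of the PABPC-table mean to the PABPN-table mean above 1 therefore says that PABPC was higher than PABPN, by at least that fold. These ratios are of the authors' means, with no replicate error. The ratio was above 1 for 72 of all 77 members and for 23 of these 26, against 48.1% of the 14581 genes with means above 50. The median ratio was 2.29 for all members, 1.83 for the 26, 1.04 for all protein-coding genes and 0.98 for all genes. MRPL41, a mitochondria-specific protein, had the highest ratio of all members, so that PABPC was at least 4.58-fold higher than PABPN. Next among the 26 came MRPS34 at 3.40 and MRPL28 at 3.34, and then MRPS16 at 2.88 and MRPS2 at 2.86.

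MRPS25, MRPS28 and MRPS6 had ratios under 1, so that PABPN was higher than PABPC by at least 1.61-fold, 1.27-fold and 1.21-fold. MRPS9 was close to 1, at 1.04. MRPS25, MRPS28 and MRPS6 belong to the small subunit, where 21 of 25 members had a ratio above 1, against 50 of 51 in the large subunit. The large subunit exception was MRPL1, and the fourth in the small subunit was MRPS31. The difference between the subunits was not tested. MRPS21 and MRPL42, with ratios of 1.54 and 1.65, have 8 and 5 pseudogenes in the reference annotation, and their reads are uncertain.

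**Figure D4:**
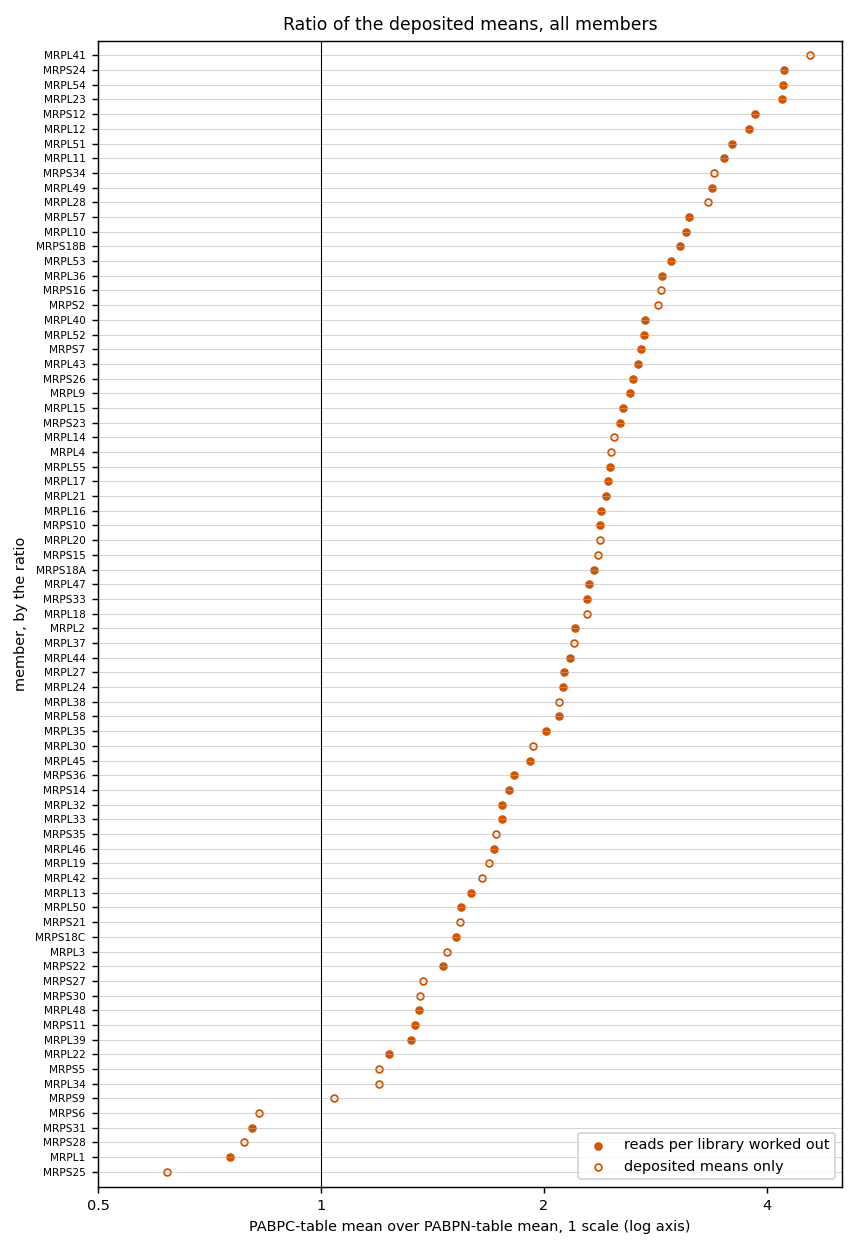
Ratio (log axis) of the PABPC-table mean to the PABPN-table mean for all 77 members, with both tables on 1 scale, filled where reads per library were worked out (51) and open where they were not (26). The line marks 1, and the 5 members to its left are MRPS25, MRPL1, MRPS28, MRPS31 and MRPS6.

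The 5 members with a ratio under 1 were all among the 20 with the longest gene span (from the first to the last base of all annotated transcripts), and none of the other 57 had one. MRPL1 spans 89956 bases, MRPS28 111573, MRPS6 69811, MRPS25 55729 and MRPS31 42063. The other 15 of the 20 longest had ratios above 1, among them MRPS22 (354692 bases), MRPL33 (216371 bases) and MRPS27 (106765 bases). A span can run well past the canonical transcript. That of MRPL33 ends at chr2:27779733, while the gene's last base is 27988087, and that of MRPL23 ends at chr11:1956600, against 1984522. Over the 51 tested members the Spearman correlation of gene span with the log2 fold change was -0.64 for PABPC and -0.02 for PABPN. Over the 7045 protein-coding genes with a span it was -0.74 and -0.17, so the relation with PABPC is not particular to the members. The 17 shortest tested members (706 to 5189 bases) had a median of 2.0 for the PABPC log2 fold change and the 17 longest (14436 to 354692 bases) one of 1.21, while the medians with PABPN were -0.52 and -0.68.

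Exonic length had a correlation of -0.19 with the PABPC fold change and 0.25 with the PABPN fold change among members, against -0.45 and 0.08 over protein-coding genes. The GC content of the longest coding transcript had a correlation of 0.70 with the PABPC fold change over the members and 0.31 over protein-coding genes. With the PABPN fold change it was -0.24 over the members and 0.19 over protein-coding genes. All of these points share the same 9 libraries, so the correlations are descriptions. Intron reads were counted with exon reads, and the part of each in a member's value was not tested.

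**Figure D5:**
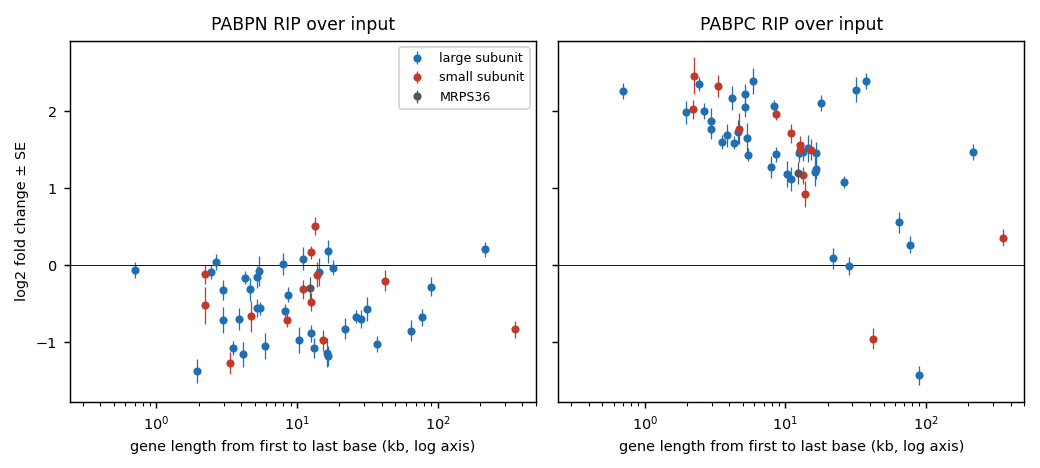
Log2 fold change ± SE (limma) of the 51 tested members against gene length on hg38 in kb (log axis), with PABPN on the left and PABPC on the right. Large subunit members are blue, small subunit members red and MRPS36 grey, and the PABPC values fall with gene length (Spearman -0.64) while the PABPN values do not (-0.02).

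The other genes of mitochondrial translation lay on both sides of input. Of the 5 mitoribosomal proteins without an MRP symbol, 3 were tested, and AURKAIP1, CHCHD1 and GADD45GIP1 were enriched with PABPC by 2.24 ± 0.13, 2.15 ± 0.13 and 2.14 ± 0.18. AURKAIP1 (-0.74) and GADD45GIP1 (-1.09) were depleted from PABPN. A ratio of the deposited means above 1 was found for 3 of the 5. Of 13 translation factors 7 were tested, and 4 were enriched with PABPC, 1 was depleted and 1 was depleted from PABPN, with a median of 0.52 with PABPC. TACO1, an activator of translation of a cytochrome oxidase subunit, was enriched with PABPC by 1.61 ± 0.12 and depleted from PABPN by -0.56 ± 0.12. MTRF1, a release factor, was depleted from PABPC by -0.61 ± 0.10. Of 24 assembly factors 15 were tested, and 10 were enriched with PABPC and 1 depleted, while 2 were enriched with PABPN and 1 depleted, with medians of 0.85 and -0.19. MPV17L2, which takes part in the assembly of the mitochondrial ribosome, had the highest value, 2.11 ± 0.25, and GTPBP10, a GTPase acting on the large subunit, the lowest, -1.71 ± 0.09. Over all genes tested 38.3% were enriched with PABPC, against 57.1% of the tested translation factors and 66.7% of the tested assembly factors. Depletion from PABPC was called for 32.3% of all genes tested. With PABPN 18.7% of all genes tested were enriched and 10.8% depleted. Ratios of the deposited means were above 1 for 10 of the 13 translation factors (76.9%) and 13 of the 24 assembly factors (54.2%). The share was 53.5% over protein-coding genes with means above 50, close to that of the assembly factors. These differences from the background were not tested.

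Nuclear genes of the respiratory chain, whose products are assembled with those made by the mitochondrial ribosome, were on the same side of input, and their difference from the members was not tested. All 27 of those tested were enriched with PABPC (median 1.73) and 20 were depleted from PABPN (median -0.73), and 76 of 78 had a ratio of deposited means above 1. Among all genes tested 38.3% were enriched with PABPC and 10.8% depleted from PABPN. A ratio above 1 was found for 48.1% of genes with means above 50. Of the cytosolic ribosomal protein genes, 84 of 84 had a ratio above 1, with a median of 3.64 against 2.29 for the members. Reads could be worked out for 3 of them, so their fold changes are not summarised.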

How the data were processed

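RNA bound by PABPN or PABPC and input RNA were measured by RNA sequencing in 9 libraries, 3 of each kind. Per the labels and the study's methods, the authors aligned reads to hg38 with STAR, counted reads of introns and exons together with featureCounts 2.0.2 on an annotation derived from an earlier GENCODE release without stretches shared by overlapping genes, and compared each RIP with input in DESeq2. How reads with several matches were treated is not given in the sources used here. The authors deposited 2 tables, 1 per RIP, whose signal values (baseMean) are means over 6 libraries of reads divided by size factors. The authors' fold changes, standard errors, test statistics and p-values were not used here. Repeated entries (123 per table) were used once.

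The smallest signal values deposited by the authors give the size factors, since 1 read in 1 library has a value of its own. Input libraries were those present in both tables (1308 genes with 1 such read, against 41 for the next pairing). For each gene with means of 10 to 9000, a search found whole reads in 9 libraries that give both means to their last digit. Where several sets did, they were weighed by the spread between libraries of a kind seen in other genes, and 1 set was kept at a posterior of at least 0.95. This gave reads for 13102 of 17376 genes. In simulated data 434 of 600 genes were accepted. The reads were right in 100% of those whose higher mean was up to 1000, 99.5% at 1000 to 2000, 96.5% at 2000 to 3000 and 95.0% above 3000, where 1, 18, 24 and 8 of the 51 members lie. The simulated deviations between libraries came from genes that the same search had accepted, so genes with other deviations were not simulated. The limit on the number of sets searched was also lower than for the members. The shares therefore need not hold for every member. None of 400 targets with no true answer and means under 600 had a solution. The lowest PABPC-table mean of a member was 680.3, so that check does not cover the members. Above about 2000 reads the spread of a gene is partly set by this weighing. Reads on the tested genes were 6629409 to 8973548 per library. The recovered libraries carry no replicate number.

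Both tables were put on 1 scale through the shared input libraries (a shift of -0.23 on the log2 scale). Log2(normalised reads + 0.5) was fitted in limma 3.58.1 (R 4.3.3, eBayes with trend), all 9 libraries in 1 fit, on the 9022 genes with means above 50 in both tables, with Benjamini-Hochberg adjustment over them. The cut-offs were those of the study. In simulated data of 9022 genes for PABPN RIP against input, 73 of 100 genes changed by 1 on the log2 scale were called and 96 of 100 changed by 2. Members named were the 6 highest and 6 lowest in each comparison, those called against the members' median and the 5 with most reads. The members, lists and cut-offs were chosen with earlier results of these data known. Gene places, spans and transcript ends are from GENCODE release 44, of the same build (hg38), and all 77 members had an entry. Alternatives were other size factors, pseudocounts, filters and cut-offs, a fit without trend, protein-coding genes alone, other limits in the search for reads and leaving out each library.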

Additional observations from a re-analysis of the deposited data

Results flagged for a closer look

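The same contrast with input gave different effects for the 2 proteins in all 51 tested members, by the direct test of PABPC RIP against PABPN RIP (limma, adjusted p of at most 0.01 and a log2 difference beyond 0.5). Over all 9022 genes tested the same test called 32.8% higher and 39.2% lower with PABPC, so a difference between the 2 RIPs was common. In 20 of the 51 members the 2 effects were called with opposite signs, depleted from PABPN and enriched with PABPC. Such opposite calls were not counted over all genes. MRPS24 had the largest difference (3.59 ± 0.14), and MRPL1 (-1.15 ± 0.13) and MRPS31 (-0.75 ± 0.13) had differences of the other sign. With recomputed size factors all 51 were called as well, 49 higher and 2 lower with PABPC.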

How the results depend on the processing

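The numbers of members enriched with PABPC (45) and higher with PABPC than with PABPN (49) stayed within 1.5 times under every alternative run, at 40 to 50 and 44 to 54, where the lower and upper ends come with fewer or more members worked out. The medians of all groups kept their sign. Leaving out each library in turn gave 21 to 27 members depleted from PABPN (24), 0 to 1 enriched with it and 2 depleted from PABPC. The 1 enriched with PABPN, MRPS11, was lost (0) with recomputed size factors, with a log2 cut-off of 1, without the 3 libraries that deviated together, and with a wider spread allowed or a posterior of at least 0.99, where it was not worked out. A log2 cut-off of 1 left 9 members depleted from PABPN, 1 depleted from PABPC and 1 lower with PABPC than with PABPN. Recomputed size factors shifted all genes with PABPN from a median of 0.026 to -0.179, and the share of higher calls among all calls from 63.4% to 37.0%. The PABPN medians then moved to -0.76 for the members, -0.78 for the large subunit, -0.68 for the small subunit, -0.75 for the bacterial homologues and -0.82 for the mitochondria-specific members, with 30 depleted. The direct medians moved to 2.22, 2.27, 2.16, 2.16 and 2.28 in the same order. Leaving out 1 library gave medians of -0.58 to -0.33 (small subunit) and -0.57 to -0.38 (homologues) with PABPN, 1.45 to 1.61 (large subunit) and 1.5 to 1.77 (homologues) with PABPC, and 2.02 to 2.16 (small subunit) and 1.97 to 2.16 (homologues) in the direct comparison. No call was turned to the other sign. No paired analysis was possible because the recovered libraries carry no replicate number, although each lysate was split between input and both RIPs. The 3 libraries that deviated together were left out, or taken as a block, after seeing the data, and apart from MRPS11, MRPL11, MRPS7 and MRPS12 no named member changed its call. Reads of the 26 members with higher means were not worked out, so their changes against input were not tested.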
